A study of Mus musculus with 2 samples.

Results

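The circadian clock genes described here are 10 genes of the mammalian molecular clock, Arntl, Clock, Per1, Per2, Per3, Cry1, Cry2, Dbp, Nr1d1 and Nr1d2. They were taken as the gene spots of the arrays whose gene name is one of these symbols, which gave 10 of 27975 gene names and 18 of the 41174 probes on each array. RNA of primary epidermal keratinocytes from K14-caSmad1 mice was compared with RNA of the same cells from wild-type mice, both FVB/NJ and at day 20 after birth, on 2 two-colour Agilent arrays of 60-base probes. K14-caSmad1 mice carry a transgene for a constitutively active form of Smad1, a transcription factor of bone morphogenetic protein signalling, and by its name the transgene is driven by the keratin 14 promoter, which is active in basal keratinocytes and the outer root sheath of the hair follicle. K14-caSmad1 RNA was in the Cy5 channel and wild-type RNA in the Cy3 channel on both arrays, so the dye and the genotype cannot be told apart. The number of animals behind each RNA sample, their sex and the hour at which they were sampled are not given in the sources used here.

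The clock is a feedback loop of transcription. ARNTL (also called BMAL1) and CLOCK bind as a pair to E-box sequences and activate the Period genes, the Cryptochrome genes, Dbp and the REV-ERB genes Nr1d1 and Nr1d2. Period and Cryptochrome proteins repress ARNTL and CLOCK, and the REV-ERB proteins repress Arntl through ROR elements, which ROR proteins activate. In mouse skin the clock is known to take part in the timing of the hair cycle and of keratinocyte division.

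Promoter windows of the members were read from RefSeq (GRCm38.p6, 250 bases before to 50 after each start) to show where the letters of these elements lie. Windows were found for 9 of the 10 genes, 13 windows in all; Per2 had none. Each was searched on both strands for CACGTG (E-box), CACGTT (a variant E-box), TAGGTCA and TGGGTCA (ROR elements), TTANGTAA (the D-box, bound by DBP) and TGACGTCA (the cAMP response element), none of which overlapped another in these windows. Of the 13 windows, 6 held at least 1 of them. The share of all windows that do so was not counted, so this count does not set the members apart. CACGTG was in a window of Cry1 and of Per1 and is in 7.15% of all 32851 windows. CACGTT was in windows of Cry1, Cry2 and Nr1d1 and is in 4.68% of all windows. TAGGTCA was in 1 Arntl window and is in 2.61% of all windows. TTANGTAA was in the Per3 window and is in 2.32% of all windows. A match is a description of the letters and not a binding site, and the other members' windows without one say only that these letters are not there. The windows of a member from each arm of the loop are shown, for an activator (Arntl, chr7:113207261-113207560, plus strand), a Period gene (Per1, chr11:69098699-69098998, plus strand) and a REV-ERB gene (Nr1d1, chr11:98775328-98775627, minus strand), with the matched letters in capitals (TAGGTCA beginning 30 bases after the Arntl start, CACGTG at -166 from the Per1 start, and AACGTG, which is CACGTT on the other strand, at -28 from the Nr1d1 start).
Arntl promoter: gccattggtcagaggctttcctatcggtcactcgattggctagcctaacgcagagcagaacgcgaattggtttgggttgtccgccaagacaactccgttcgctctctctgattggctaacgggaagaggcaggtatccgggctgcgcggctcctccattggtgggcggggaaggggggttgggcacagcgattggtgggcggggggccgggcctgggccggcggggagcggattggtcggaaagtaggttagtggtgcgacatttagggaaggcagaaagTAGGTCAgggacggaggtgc
Per1 promoter: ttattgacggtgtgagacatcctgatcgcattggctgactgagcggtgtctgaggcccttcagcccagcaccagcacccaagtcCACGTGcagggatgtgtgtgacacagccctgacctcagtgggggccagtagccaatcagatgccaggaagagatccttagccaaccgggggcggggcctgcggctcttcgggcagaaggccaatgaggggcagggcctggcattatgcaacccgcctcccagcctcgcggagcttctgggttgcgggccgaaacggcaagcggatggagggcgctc
Nr1d1 promoter: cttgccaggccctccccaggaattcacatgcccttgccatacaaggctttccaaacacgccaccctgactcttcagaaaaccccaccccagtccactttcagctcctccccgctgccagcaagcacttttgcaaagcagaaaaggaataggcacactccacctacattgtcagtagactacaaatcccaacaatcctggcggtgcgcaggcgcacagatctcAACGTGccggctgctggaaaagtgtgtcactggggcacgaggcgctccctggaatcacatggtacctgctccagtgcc

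Of the 10 genes, 7 had a probe that was well above background in both channels of both arrays. Cry1 and Per3 had none above background in any channel, and Nr1d1 was above background on replicate 2 alone. The measured genes were mostly higher in K14-caSmad1 keratinocytes: Nr1d2 by 2.22-fold, Clock by 1.8-fold, Per2 by 1.71-fold, Cry2 by 1.41-fold and Arntl by 1.4-fold. Dbp was 1.29-fold lower and Per1 read the same in both. Values are means of the 2 arrays. Between the arrays the log2 ratios of 12300 probes with 1 spot each differed with an SD of 0.0946, and spot noise within an array alone predicts 0.107. For 94 repeated probes the SD was 0.0519, above the 0.034 predicted. The labels call the arrays biological replicates but do not show separate animals, so they were counted as 1 sample. The p-values below come from limma over all 11752 genes tested, with Benjamini-Hochberg adjustment, and measure how well the arrays repeated, with no error between animals.

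By that measure 5 of the 7 measured members were higher, 1 was lower and 1 did not pass the threshold of 0.05. Of all genes tested 87.1% passed it, 40.8% higher and 46.3% lower, so that passing it does not set a clock gene apart. By a second rule, a ratio of 2-fold or more that pointed one way on each array, 1 of 7 members was higher (Nr1d2) and 0 lower, which is 14.3% of those tested against 13.9% of all genes (4.08% higher and 9.81% lower). These counts depended on the processing. With normexp fitted on all spots, or with no background subtraction, 0 of 7 members passed 2-fold (6.6% and 10.1% of all genes), so that Nr1d2 lost its call. With median centring of each array in place of loess 3 of 7 passed, all higher (16.3% of all genes), and 3 of 7 with the scanner's processed signals and with the deposited values (26.6% of all genes with each). Of all genes past 2-fold 480 were higher and 1153 lower as reported. The majority was also lower with the processed signals, at 1256 higher and 1877 lower, and turned with median centring, at 1110 higher and 811 lower. The median log2 ratio of the 7 members was 0.49, beside -0.032 over all genes tested. Of the 7, 6 lay above 0 (Per1 by only 0.02), beside 47.7% of all genes. These 7 passed the detection filter through both channels, so none entered because it was bright in a single one. Over the 9931 genes that did the same, the median was 0.01 and 13.2% were past 2-fold (458 higher and 857 lower).

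**Figure D1:**
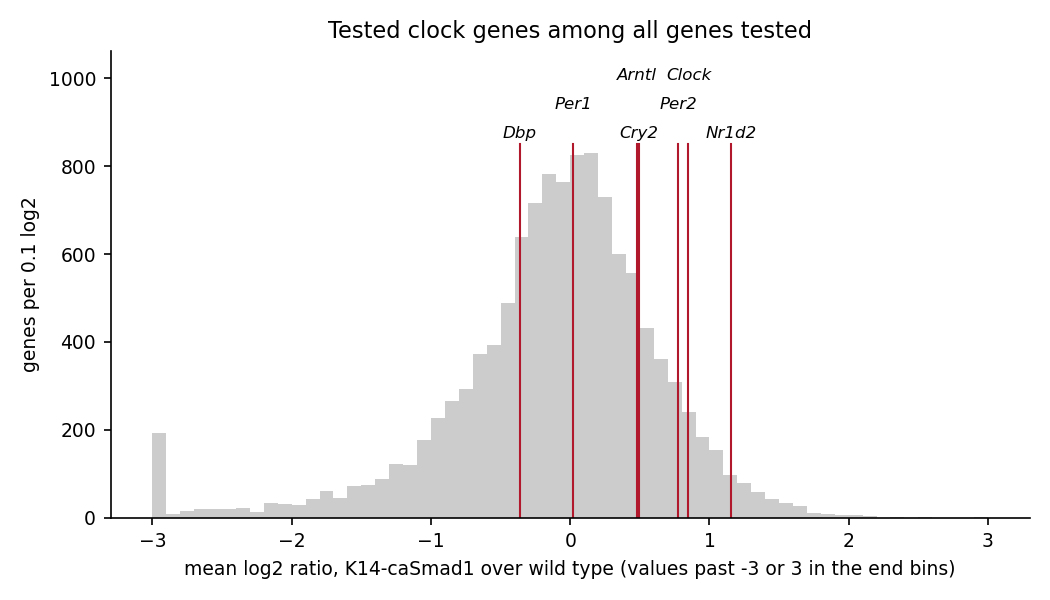
Histogram of the mean log2 ratio of K14-caSmad1 over wild type (x axis) for the 11752 genes tested (y axis, genes per 0.1 log2), with a red line at each of the 7 measured clock genes. Nr1d2 has a higher ratio than 97.2% of all genes, Clock than 93.1% and Per2 than 91.3%, while Per1 (53.7%) and Dbp (29.6%) lie within the bulk.

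The activators were both higher in K14-caSmad1. Arntl encodes the partner of CLOCK. Its single probe lies on chromosome 7, 120456978 to 120457037 (mm9, plus strand), from base 2245 of the transcript. It is shown with a Per2 probe (chr1:93336538-93336597, minus strand) and an Nr1d1 probe (chr11:98630526-98631028, minus strand, 60 bases that span 503 bases of the genome), because the last pair bear on which ends of these transcripts were measured. No base is marked in them.
Arntl probe: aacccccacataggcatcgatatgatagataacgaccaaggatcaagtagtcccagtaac
Per2 probe: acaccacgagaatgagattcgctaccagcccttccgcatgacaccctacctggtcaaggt
Nr1d1 probe: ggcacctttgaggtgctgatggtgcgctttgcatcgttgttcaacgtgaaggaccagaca

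Arntl had a normalised log2 intensity of 11.31 and 11.02 in K14-caSmad1 on replicates 1 and 2, against 10.84 and 10.53 in wild type. The K14-caSmad1 channel was the higher on each array, with log2 ratios of 0.47 and 0.49. The mean log2 ratio was 0.48 ± 0.024 (SE, with limma adjusted p = 0.000227). Each SE given here and below is limma's moderated SE, which draws on the variance of all genes tested. With all spots in the background fit the ratio was 0.46 and did not pass (adjusted p = 0.109), and with median centring it was 0.79. All levels are given per probe, and levels of different probes cannot be set against each other.

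Clock, whose product is the DNA-binding partner of ARNTL, had the larger ratio of the activators. The probe that measured it (chromosome 5, 76641377 to 76641436, minus strand, from base 7243) read 11.25 and 10.95 in K14-caSmad1 and 10.43 and 10.07 in wild type on the log2 intensity scale. The log2 ratios were 0.82 and 0.88, with a mean of 0.85 ± 0.028 (SE; limma adjusted p = 8.79e-05). The K14-caSmad1 channel was the higher on each array, as for Arntl. A neighbouring Clock probe from base 6847 was above background in K14-caSmad1 on replicate 2 alone and in wild type on neither array. Its log2 ratios were 0.48 and 0.65, and it gives only a rough bound of 1.13-fold higher. The bound sets the K14-caSmad1 mean against the lowest wild-type level that counted as well above background (or the probe's own, where higher), and is open to dye bias. It is not a strict minimum, since the mean takes in replicate 1 and some undetected wild-type probes read above that level. The other Clock probes, from bases 755 and 1980, were not well above background in any channel.

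Among the Period genes, whose products carry the repression, the measured members differed from each other. Per2 (chromosome 1, 93313046 to 93313105, minus strand, from base 5290) read 10.28 and 10.03 in K14-caSmad1 and 9.49 and 9.28 in wild type. The log2 ratios were 0.79 and 0.76, with a mean of 0.78 ± 0.026 (SE; limma adjusted p = 8.79e-05). With all spots in the background fit the mean was 0.50, with 0.24 on replicate 1, and did not pass (adjusted p = 0.0764), and with the processed signals it was 1.27. The upstream Per2 probe shown above was not well above background on either array.

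Per1, the Period gene known for its rapid induction by glucocorticoids and cAMP, gave nearly the same level in both genotypes. Its probe (chromosome 11, 68922878 to 68922937, plus strand) read 12.18 and 11.98 in K14-caSmad1 and 12.15 and 11.96 in wild type. The log2 ratio was 0.03 and 0.01, with a mean of 0.02 ± 0.025 (SE; limma adjusted p = 0.488). It was 0.32 with median centring, where the median of all genes was itself 0.22. Per3 (chromosome 4, 150379256 to 150379315, minus strand) was not well above background, at 7.89 and 8.01 in K14-caSmad1 and 7.78 and 8.02 in wild type.

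Of the Cryptochrome genes, which encode the partners of the Period proteins, Cry2 alone was measured. The Cry2 probe from base 3382 (chromosome 2, 92244363 to 92244422, minus strand) read 10.7 and 10.31 in K14-caSmad1 and 10.05 and 9.97 in wild type. The K14-caSmad1 channel was the higher on each array, but the log2 ratios of 0.65 and 0.34 lay further apart than those of any other measured member, by 0.31. The mean was 0.49 ± 0.085 (SE; limma adjusted p = 0.00759). It was 0.32 with all spots in the background fit, which did not pass (adjusted p = 0.305), and 0.79 with median centring. A second Cry2 probe, from base 887, was not well above background. The Cry1 probes (chromosome 10, 84606495 to 84606554 and 84594731 to 84594790, minus strand) were not well above background either, with log2 intensities of 8.57 and 8.65 in K14-caSmad1 and 8.54 and 8.51 in wild type at the first of them.

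The REV-ERB genes encode nuclear receptors that repress Arntl. Nr1d2 (chromosome 14, 19037253 to 19037312, minus strand, from base 3783) read 11.28 and 10.97 in K14-caSmad1, against 10.09 and 9.85 in wild type. Its log2 ratios of 1.18 and 1.12 were the highest of the measured members on each array, with a mean of 1.15 ± 0.029 (SE; limma adjusted p = 5.68e-05). In the scanner's processed signals Nr1d2 read 1530 and 1540 in K14-caSmad1 and 534 and 525 in wild type.

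Nr1d1 did not pass the detection filter and was not tested in the reported fit. Its probe from base 1919, shown above, was well above background in both channels of replicate 2, at 8.85 in K14-caSmad1 and 9.13 in wild type, and in neither channel of replicate 1, at 8.42 in K14-caSmad1 and 8.7 in wild type. The log2 ratio was -0.28 on each array. The Nr1d1 probes from bases 62 and 582 were not well above background.

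Dbp encodes a transcription factor of the clock's output that binds D-boxes and is known as one of its most rhythmic targets. Its probe (chromosome 7, 52965265 to 52965324, plus strand, from base 1440) read 12.39 and 12.05 in K14-caSmad1 and 12.74 and 12.43 in wild type. K14-caSmad1 was the lower on each array, with log2 ratios of -0.35 and -0.38 and a mean of -0.36 ± 0.025 (SE; limma adjusted p = 0.000522). With median centring the ratio was -0.07 and did not pass (adjusted p = 0.0548), and with all spots in the background fit it was -0.22 (adjusted p = 0.53).

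**Figure D2:**
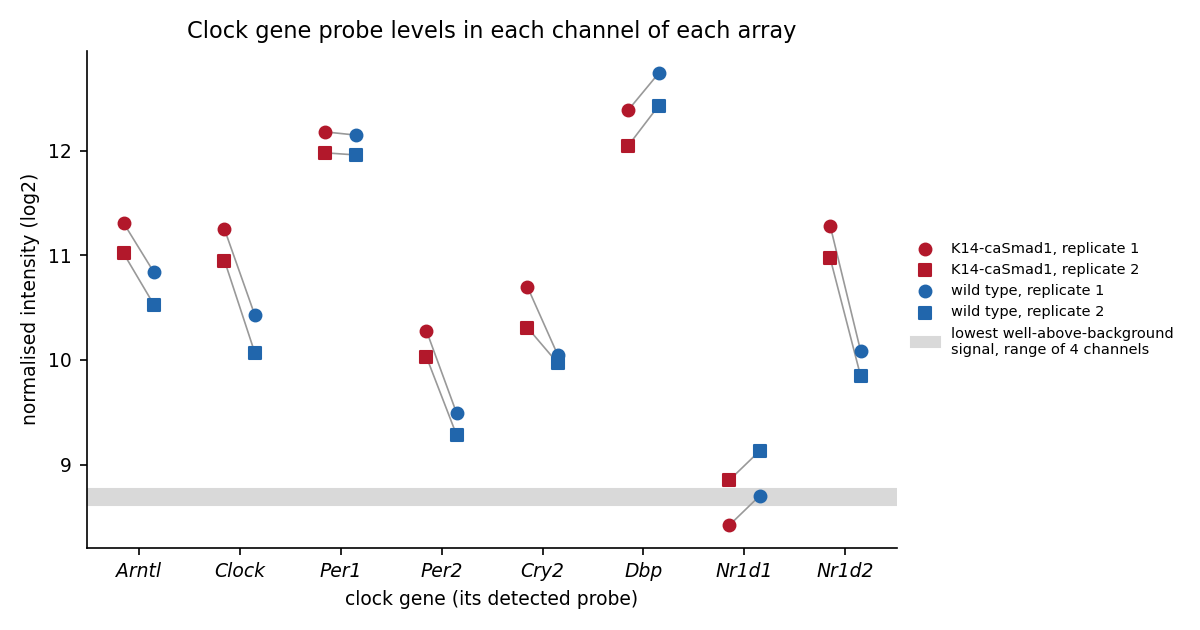
Normalised log2 intensity (y axis) of the detected probe of 8 clock genes (x axis), in K14-caSmad1 (red) and wild type (blue), with circles for replicate 1, squares for replicate 2 and a grey line joining the channels of an array. The grey band is the range, over the channels and arrays, of the lowest signal called well above background (8.61 to 8.77); K14-caSmad1 lies above wild type on both arrays for Arntl, Clock, Per2, Cry2 and Nr1d2 and below it for Dbp and Nr1d1.

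In order of the mean log2 ratio the measured members were Nr1d2, Clock, Per2, Cry2, Arntl, Per1 and Dbp. Cry2 and Arntl overlapped between arrays and were 0.01 apart. Clock (0.82 to 0.88) and Per2 (0.76 to 0.79) did not overlap between arrays but were only 0.07 apart. For scale, the difference of 1 probe between arrays had an SD of 0.0946. The other neighbours were 0.28 to 0.46 apart, and their arrays did not overlap either. The known targets of ARNTL and CLOCK lay at both ends of this order: Nr1d2, Per2 and Cry2 were higher, Dbp was lower, and Per1 did not pass the threshold.

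**Figure D3:**
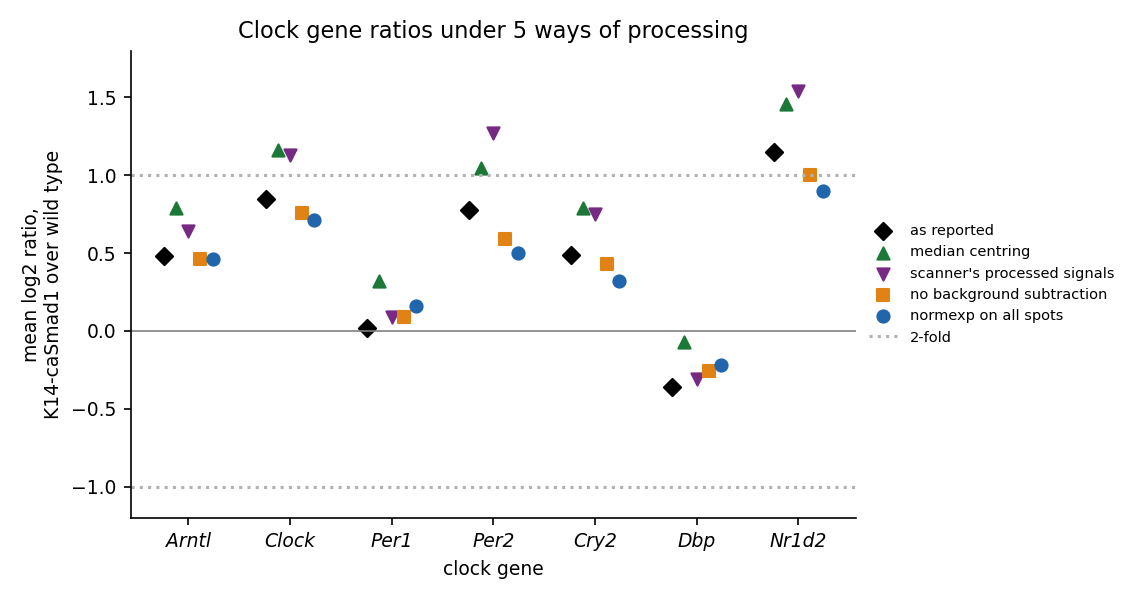
Mean log2 ratio of K14-caSmad1 over wild type (y axis) for the 7 measured clock genes (x axis), as reported (black) and with 4 other ways of processing the same arrays, with dotted lines at 2-fold. Nr1d2, Clock, Per2, Cry2 and Arntl lie above 0 and Dbp below 0 in each, while the sizes differ, from 0.90 to 1.54 for Nr1d2.

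Of the 18 probes 9 were never well above background. Of 5 members with probes at several positions of 1 transcript, 4 (Clock, Cry2, Nr1d1 and Per2) had signal at the probe nearest the transcript's end and not at the probe nearest its start, and Cry1 had signal at neither. Among 5895 transcripts with probes at several positions, 30.5% had signal at the last probe only and 8.11% at the first only. The RNA had been amplified in 1 round before labelling, per the labels. The part of the amplification in the dim probes was not tested.

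**Figure D4:**
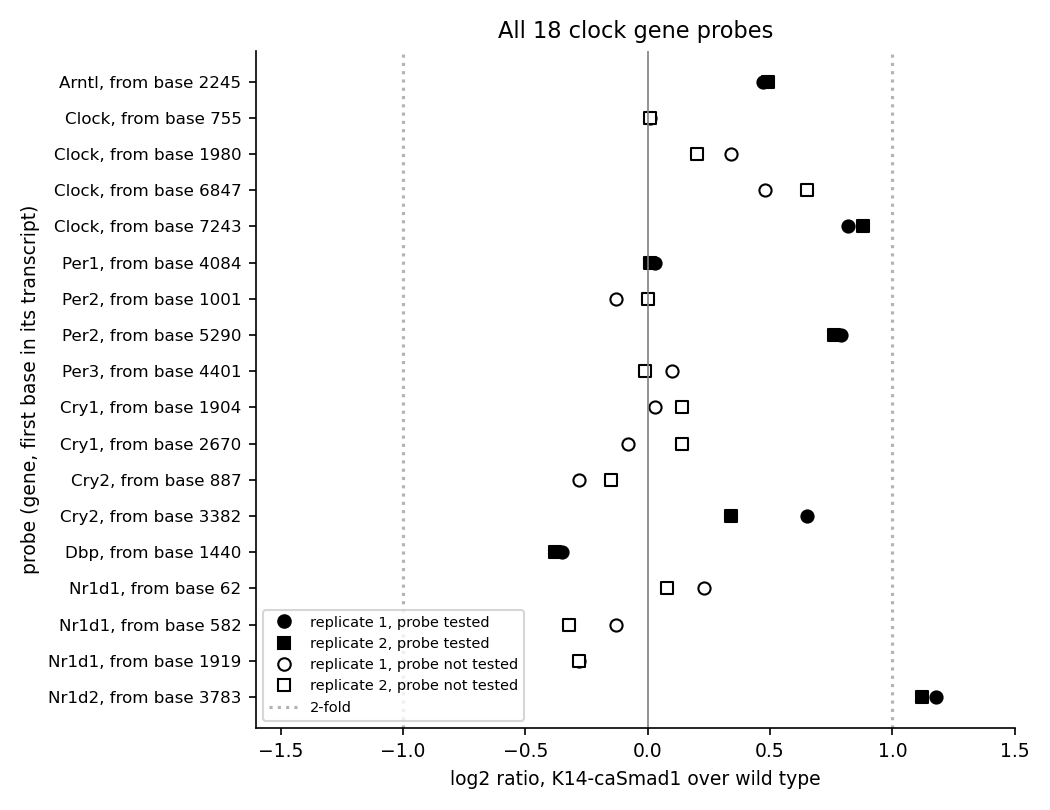
Log2 ratio of K14-caSmad1 over wild type (x axis) on replicate 1 (circles) and replicate 2 (squares) for all 18 probes of the 10 clock genes (y axis, with the first base of the probe in its transcript). Filled points are the 7 probes tested, open points those not well above background on both arrays of a channel, and dotted lines mark 2-fold; the Nr1d2 points alone pass it.

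Genes around the core loop were taken from 4 lists, fixed with earlier results of these data known. The first holds 13 genes, other clock transcription factors together with Timeless and Tipin, which are not transcription factors. Of these 8 were measured, 7 higher and 1 lower past limma's threshold (40.8% and 46.3% of all genes), with a median log2 ratio of 0.38, and 2 were at least 2-fold higher and 0 lower (4.08% and 9.81% of all genes). Rora, an ROR activator of Arntl, had log2 ratios of 1.61 on both arrays and a mean of 1.61 (limma adjusted p = 2.88e-05), with 1.31 at a second probe. Tipin, the partner of Timeless in DNA replication forks, had a mean of 1.47. Named outside the rule after their values were seen, the relatives of Dbp, Hlf (0.76) and Tef (0.55), were higher. Nfil3, a repressor at the same D-boxes, was lower, as Dbp was, at -0.92, with -1.06 at a second probe. Differences between these genes were not tested. Npas2 (a stand-in for Clock), Arntl2, Rorb, Bhlhe41 and Ciart were not tested.

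Of 29 clock kinases, phosphatases, ubiquitin ligases and cofactors, 25 were measured, 10 higher and 10 lower past limma's threshold (40.8% and 46.3% of all genes), with a median of -0.03, and 2 were at least 2-fold higher and 1 lower (4.08% and 9.81% of all genes). Usp2, a deubiquitinase that is itself a rhythmic gene, was at least 2-fold lower on both arrays, with log2 ratios of -1.68 and -1.44, and -0.44 at a second probe. With all spots in the background fit it read -0.95 on replicate 1, short of 2-fold. Prkaa1, a catalytic subunit of AMP-activated kinase, which phosphorylates Cryptochromes and promotes their decay, had a mean of 1.13, but 0.12 at a second probe. Sfpq, an RNA-binding cofactor of Period proteins, had a mean of 1.05.

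Of 27 clock-controlled and rhythmic output genes, 21 were measured, 12 higher and 7 lower past limma's threshold (40.8% and 46.3% of all genes), with a median of 0.14, and 4 were at least 2-fold higher and 1 lower (4.08% and 9.81% of all genes). The metallothionein gene Mt2 (1.54), the decoy receptor gene Tnfrsf11b (1.48) and Klf10 (1.32), a Krüppel-like factor, were higher. Tnfrsf11b was 0.99 with all spots in the background fit (0.50 on replicate 1, short of 2-fold) and 2.40 with the processed signals. Hsf1, the heat shock factor, was lower at -1.73, with -0.20 and -0.51 at its other probes. Of 10 genes of the cAMP and immediate-early route that induces Per genes, 9 were measured, 2 higher and 4 lower past limma's threshold (40.8% and 46.3% of all genes), with a median of -0.04. Fos was at least 2-fold lower (-1.48), and Creb1 had 0.52, short of 2-fold. Creb1 did not pass limma's threshold with all spots in the background fit (0.34, adjusted p = 0.274), and was 0.92 with the processed signals.

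**Figure D5:**
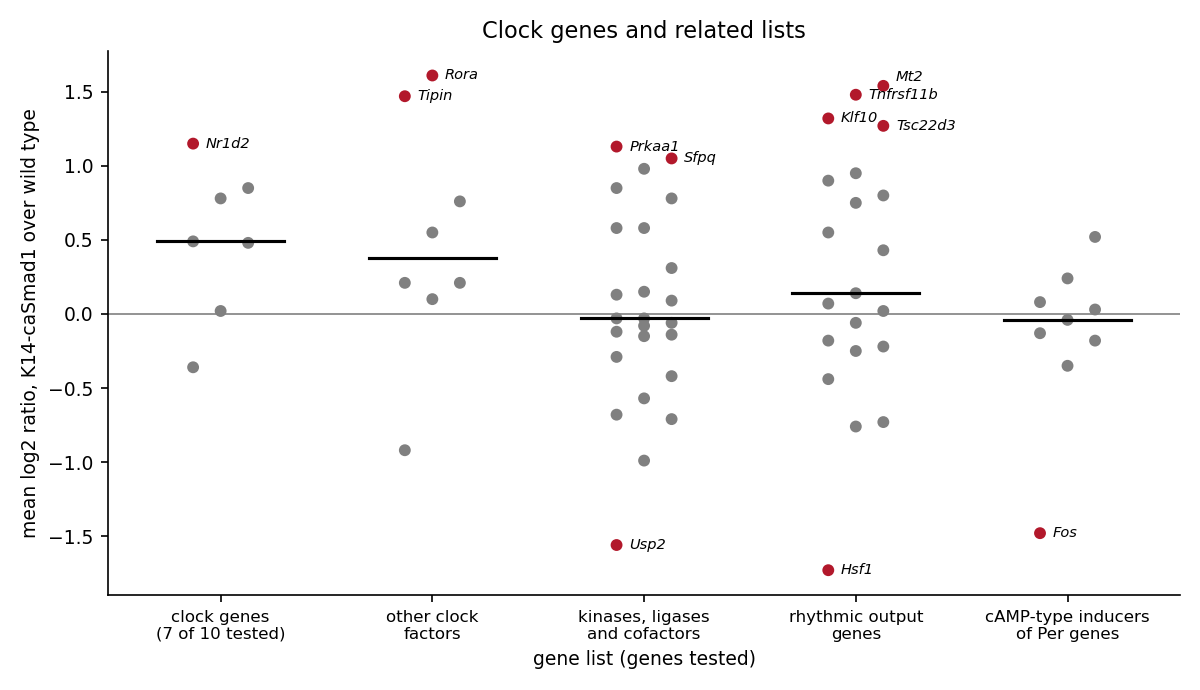
Mean log2 ratio of K14-caSmad1 over wild type (y axis) for the measured genes of 5 lists (x axis), each point a gene, red and named where it was at least 2-fold different on both arrays, with the list's median as a black bar. The medians of the clock genes (0.49) and of the other clock factors (0.38) lie above those of the kinases and cofactors (-0.03), the output genes (0.14) and the inducers of Per (-0.04).

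All 7 basal and all 7 suprabasal keratinocyte markers were measured, but markers of other cells were detected too, and several lists moved with the genotype. Hair shaft keratin genes other than Krt82 were well above background in both genotypes (Krt34 had a mean log2 intensity of 13.38 in K14-caSmad1 and 18.32 in wild type). Krt82 was well above background in wild type alone. By the brightest probe of each gene, basal markers were higher in 7 of 7 cases. Their summed normalised intensity was 371161 and 388929 in K14-caSmad1 and 202426 and 193693 in wild type. At second probes Trp63 read -0.78 and Col17a1 -0.11 on the log2 ratio scale, while Itgb4 read 0.86. Hair shaft and inner root sheath markers were at least 2-fold lower in 14 of 14 cases, with sums of 124968 and 118608 in K14-caSmad1 and 2166539 and 2210602 in wild type. Melanocyte markers were lower in 5 of 5 measured cases (sums of 3704 and 3230 in K14-caSmad1, 6986 and 6713 in wild type; Tyr and Sox10 were never above background). Immune cell markers were higher in 4 of 5 measured cases past limma's threshold (sums of 27831 and 33967 in K14-caSmad1, 19168 and 26541 in wild type; Cd3e and Lyz2 were never above background). Fibroblast markers were lower in 4 of 5 measured cases and higher in 1, with sums of 18008 and 18002 in K14-caSmad1 and 10290 and 10806 in wild type (Lum and Pdgfra were never above background). Vim, which many cell types express, was the higher one (1.39) and carries these sums, while Col1a1, Col1a2, Col3a1 and Dcn were not above background in K14-caSmad1. Of the endothelial markers 3 of 7 were measured, all lower (sums of 2636 and 2468 in K14-caSmad1, 3400 and 3303 in wild type; Pecam1, Cdh5 and Tek were never above background). Of the muscle markers 1 of 6 was measured, and it was lower (sums of 2284 and 2224 in K14-caSmad1, 2625 and 2709 in wild type; Myh4, Myh1, Ckm and Acta1 were never above background). Each sum takes in every gene of its list on the arrays. The muscle, endothelial and melanocyte sums therefore hold much signal of genes not above background. Suprabasal markers were higher in 4 and lower in 2 of 7 cases, with sums of 577584 and 575090 in K14-caSmad1 and 401891 and 361334 in wild type. At second probes Krt10 read 2.29 (0.02 at its brightest), Sbsn 2.04 and Krtdap 0.50 on the log2 ratio scale. Bulge markers were higher in 3 and lower in 3 of 6 measured cases (sums of 10668 and 11036 in K14-caSmad1, 10416 and 10645 in wild type; Lgr5 and Cdh3 were never above background). In such bulk samples fewer cells of a type and less RNA per cell cannot be told apart, and the part of these markers in the clock gene values was not tested.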

How the data were processed

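Both arrays were read from scanner files of Agilent Feature Extraction, with probe positions on mm9, per the file headers. Per the file headers, each spot has an unnormalized mean intensity and a local background intensity per channel, beside a processed intensity after the scanner software's background subtraction, spatial detrending and dye normalization. The authors' deposited table holds log10 ratios of Cy5 over Cy3 with medians of 0.023 and -0.01 on replicates 1 and 2, not centred, which differ from the ratio of the processed signals by at most 0.00397. No gene spot was saturated (0 of 43379 on each array), 14412 and 15800 were well above background in K14-caSmad1 and 15570 and 16144 in wild type, and the number of arrays limits the precision.

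Background was corrected with normexp (offset 50) in limma 3.58.1 under R 4.3.3, leaving out 36 spots of replicate 1 on a non-uniform local background. Log2 ratios were normalized by loess (span 0.3), outlier spots were left out and spots of a probe averaged. Channel levels are log2 intensities after a further Aquantile step. A probe was tested if well above background on both arrays in either channel (15127 probes), and the brightest tested probe stood for a gene (11752 genes). Gene names outside the members were updated through RefSeq GRCm38.p6, with 24844 probes matched by accession, 6045 by symbol, 1810 by synonym and 8475 keeping the file's name. Ratios were tested against 0 with lmFit and eBayes. The fit was also run on simulated data in which few genes differed, unlike the 87.1% called here, and nothing is concluded from that run. The members and lists were chosen with earlier results of these data known. Named genes were every member, and up to 4 genes per list past 2-fold on both arrays with the largest mean log2 ratio in size, or the 2 largest where fewer than 2 passed. The alternatives are given in the closing section.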

Additional observations from a re-analysis of the deposited data

How the results depend on the processing

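The 11 alternatives are not 11 separate tests of direction. Each measured member had a single tested probe. Its ratio could not move with no detection filter, with both channels required, with probes averaged or with an intensity trend in eBayes. Leaving out an array gives the other array's ratio alone, and the deposited values nearly repeat the processed signals. Under all 11 the 7 measured clock genes kept their direction, though for Per1, at 0.02 and short of the threshold, that says little. Their log2 ratios ran from 0.90 to 1.54 for Nr1d2, 0.71 to 1.16 for Clock, 0.50 to 1.27 for Per2, 0.32 to 0.79 for Cry2, 0.46 to 0.79 for Arntl, 0.01 to 0.32 for Per1 and -0.38 to -0.07 for Dbp. With all spots in the normexp fit 2 members passed limma's threshold in place of 6 (Nr1d2 and Clock), 3269 genes passed it in all, 0 members and 776 genes (6.6%) were at least 2-fold different, and the adjusted p was 0.109 for Arntl, 0.0764 for Per2 and 0.305 for Cry2. With no background subtraction 0 members were past 2-fold (Nr1d2 had 1.03 and 0.97 on the arrays), beside 10.1% of all genes. Past it were 3 (Nr1d2, Clock and Per2) with median centring (16.3% of all genes), 3 with the scanner's processed signals and 3 with the authors' deposited values (26.6% with each). Past 2-fold were 3133 genes with the processed signals and 3129 (1253 higher and 1876 lower) with the deposited values. With no detection filter, which adds dim genes to those tested, 17755 of 27961 genes (63.5%) passed limma's threshold. Of the members 7 of 10 passed it, 5 higher and 2 lower. The added one was Nr1d1 at -0.28 (limma adjusted p = 0.00493), a dim probe above background on replicate 2 alone. Cry1 and Per3 did not pass. Per1 passed it with no background subtraction (adjusted p = 0.0184) and with median centring (adjusted p = 0.000904). On single arrays 1 member and 1747 to 1766 genes were past 2-fold. The fit on all spots differs from the reported fit only by the spots on a non-uniform background, 36 on replicate 1 and 0 on replicate 2. With it replicate 2 was unchanged (Per2 at 0.76, Nr1d2 at 1.12). Replicate 1 moved from 0.79 to 0.24 for Per2, from 1.18 to 0.67 for Nr1d2 and from 0.03 to 0.31 for Per1. Why these spots moved the fit, and the cause of the other shifts, was not tested. The ratio within an array already pairs the genotypes, so no further replicate block was fitted.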

Other observations

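Probes of 1 gene did not always give the same direction among the genes around the clock, and the following were picked after their values were seen. Csnk1a1, a casein kinase gene, had 5 probes above background in both channels of both arrays, of which 4 read between 0.37 and 0.71 and the other read -1.26 on the log2 scale. Ncor1, a corepressor of the REV-ERB receptors, read -0.29 at its brightest probe and 0.79 at another. Csnk1d read -0.15 at its brightest probe, and -0.52 and 0.21 at others. Tsc22d3, a glucocorticoid-induced gene that is also rhythmic in many tissues, was at least 2-fold higher on both arrays at its brightest probe (1.27), and read 1.77 and 0.79 at its other probes. Nampt, the enzyme gene of a clock-controlled NAD salvage step, had 0.90, and Hdac3, the deacetylase recruited by REV-ERB receptors, had -0.99 with -0.94 and -1.05 on the arrays.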
